A study of Mus musculus with 20 samples.

Results

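Interferon-stimulated genes were followed across the livers of fasted and refed mice with K556R or wild-type Prox1. The set was a list of 38 gene symbols, and 36 of them were found among the 29915 genes of the count table, the exceptions being Tgtp1 and Gbp7. All 36 passed the filter on low counts and were tested among 13894 genes. Interferons are secreted proteins that cells release when they sense viral or bacterial nucleic acids. Types I and III act through a complex with Stat2 and Irf9 at a promoter element called the ISRE, and type II acts at an element called GAS. Their target genes encode RNA sensors, antiviral effectors, GTPases that attack intracellular pathogens, and chemokines, and in liver both hepatocytes and resident immune cells express them.

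The 4 groups were K556R refed, wild type refed, K556R fasted and wild type fasted, with 5 RNA-seq libraries each. K556R is a form of Prox1, a homeodomain transcription factor of hepatocytes, named for the lysine that is exchanged and cannot then take up the small protein SUMO. Expression of the knock-in allele was switched on in hepatocytes by Cre recombination when male mice were 8 weeks old, on chow, and livers were collected 11 weeks after that at Zeitgeber time 15 to 17. Sample titles call the genotypes Cre and Ctrl, so an effect of Cre and one of K556R cannot be told apart. The sources used here do not give the strain, the source of Cre or how long mice were fasted and refed. Libraries are named by repeat and batch: 14 were in batch 1 (b1) and 6 in batch 2 (b2), with 3 of the batch 2 libraries in K556R refed and 1 in each other group.

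Library totals were 33746054 to 50647297 counts, and levels are given as CPM, read counts scaled to a common library size with TMM factors. Counts of the 36 genes ran from 5 reads in a library (Oas3) to 10631 (Iigp1). Prox1 itself read 57.7 to 89.4 CPM in K556R refed against 93.3 to 133 CPM in wild type refed livers, and 85.0 to 126 CPM in K556R fasted against 121 to 223 CPM in wild type fasted livers. Averaged over both feeding states, Prox1 was lower in K556R (log2 fold change -0.72, standard error 0.103, adjusted p = 0.00563). Gene counts do not show the K556R codon. The libraries K556R refed 1_b1 and K556R fasted 1_b1 stood apart on the second principal component (12.1% of variance), at -57.3 and -39.5, while the other 18 lay at -8.06 or above. Results that rest on them are given with and without them. Hepatocyte markers were high in all 20 libraries, with a summed level of 98500 to 143000 CPM over 7 genes.

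**Figure D1:**
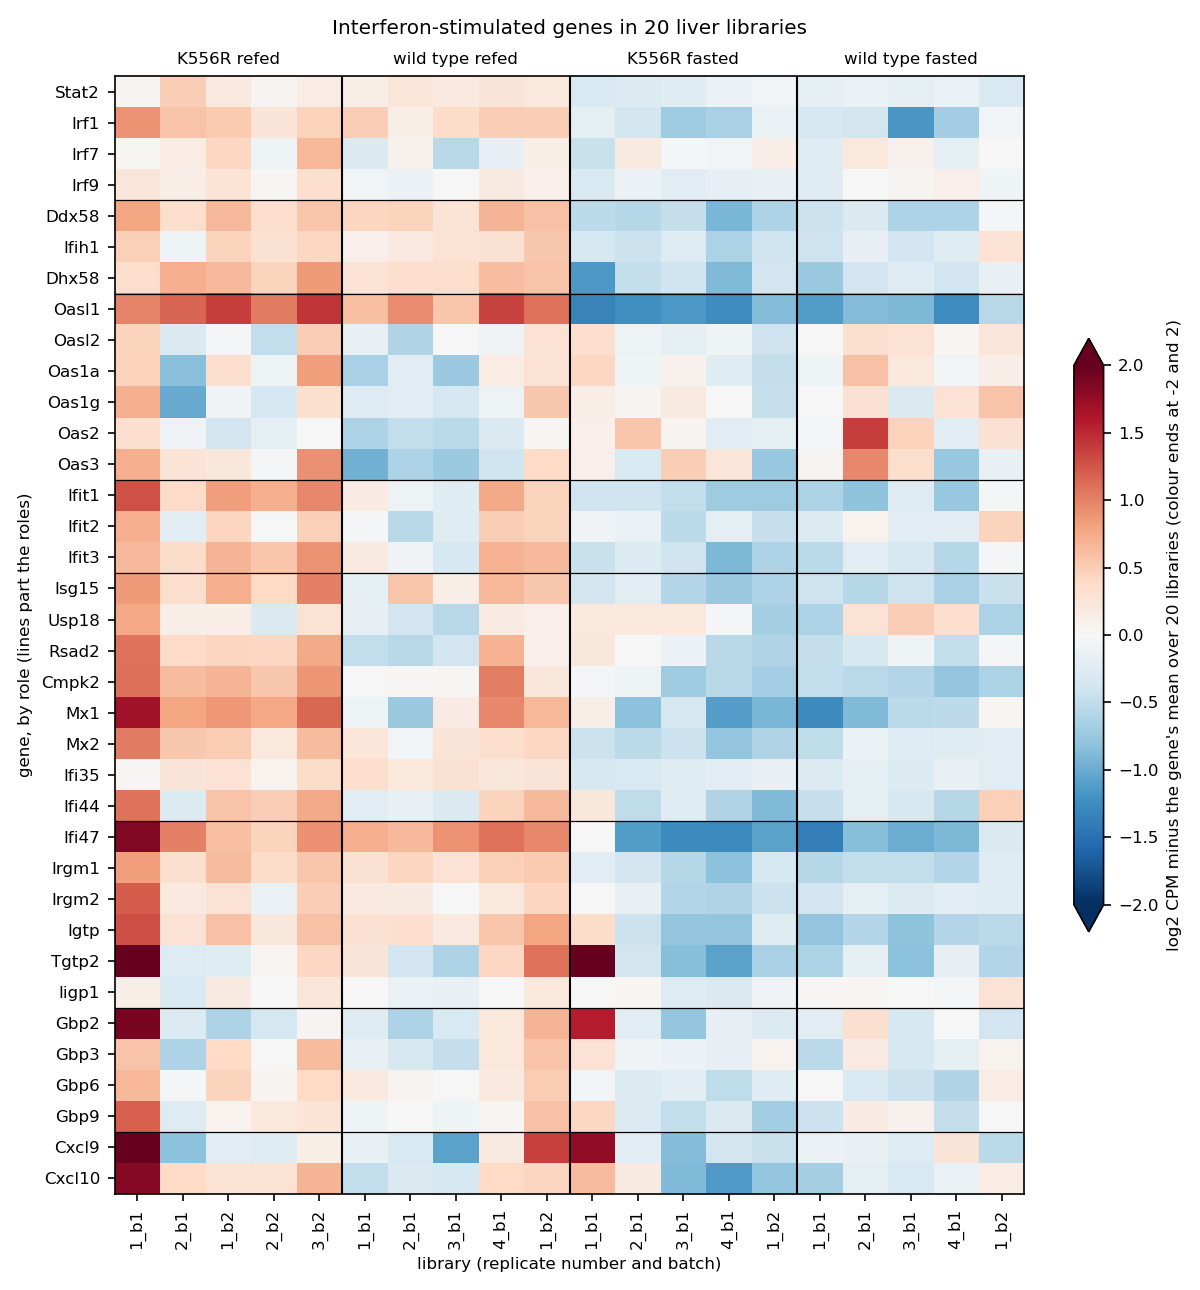
Levels of the 36 genes (rows, in the order of their roles) in each of the 20 libraries (columns, by group), as log2 CPM minus the gene's mean over all libraries. Refed libraries are red and most fasted ones blue for Oasl1, Ifi47 and Ddx58. K556R fasted 1_b1 lies near the mean for Ifi47, and wild type fasted 1_b2 lies near it for Ddx58. The 1_b1 columns of both K556R groups are dark red for Tgtp2, Gbp2 and Cxcl9.

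Promoter windows from RefSeq (GRCm38.p6, 250 bases before to 50 bases after a transcript start) were found for 28 of the 36 genes, 32 windows in all. An ISRE core, searched as GAAANNGAAA on either strand, was present in 17 of these 28 genes (60.7%), and in 3.99% of the 27025 genes with a window. A GAS core, searched as TTCNNNGAA, was present in 7 of the 28 (25%), and in 9.55% of all genes with a window. Such matches describe letters in a window and not bound sites. The promoter stretches below carry the match of genes described in the results, with 15 bases on each side, and capitals mark the ISRE and GAS letters. Isg15, Ifit1 and Irgm1 hold overlapping or paired ISRE cores. Igtp, Irgm2 and Tgtp2, 3 GTPases of 1 family, each hold a GAS core followed after 2 bases by an ISRE core. Oas1a and Oas1g share 1 ISRE stretch, and Oas1a holds a GAS core 69 bases before it.
Isg15: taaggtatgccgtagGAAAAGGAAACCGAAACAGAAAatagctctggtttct
Ifit1: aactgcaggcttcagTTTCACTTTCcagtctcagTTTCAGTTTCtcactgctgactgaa
Irgm1: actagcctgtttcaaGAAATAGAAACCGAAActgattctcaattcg
Igtp: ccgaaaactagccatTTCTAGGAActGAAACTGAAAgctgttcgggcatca
Irgm2: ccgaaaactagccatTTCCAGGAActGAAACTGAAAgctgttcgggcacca
Tgtp2: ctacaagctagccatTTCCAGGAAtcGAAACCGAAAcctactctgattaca
Oas1a: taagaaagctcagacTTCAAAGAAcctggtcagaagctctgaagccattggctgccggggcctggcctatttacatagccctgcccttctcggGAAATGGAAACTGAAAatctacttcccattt
Oas1g: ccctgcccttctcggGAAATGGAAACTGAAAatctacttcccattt
Their positions on GRCm38.p6 are Isg15 chr4:156200860-156200911 on the minus strand, Ifit1 chr19:34640770-34640828 on the plus strand, Irgm1 chr11:48871420-48871465 on the minus strand and Igtp chr11:58199496-58199546 on the plus strand. The other stretches lie at Irgm2 chr11:58214887-58214937 on the plus strand, Tgtp2 chr11:49064258-49064308 on the minus strand, Oas1a chr5:120907515-120907638 on the minus strand and Oas1g chr5:120887601-120887646 on the minus strand.

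Refeeding was the condition that went with higher levels of these genes. In K556R livers 22 of the 36 rose on refeeding and 0 fell (adjusted p under 0.05 by edgeR's quasi-likelihood test with Benjamini-Hochberg adjustment over all genes), where 19.6% of all genes rose and 20.3% fell. In wild-type livers 18 rose and 1, Oas2, fell, where 20.9% of all genes rose and 24.2% fell. The median log2 fold change of the 36 was 0.67 in K556R, beside 0.01 over all genes, and 0.43 in wild type, beside -0.01 over all genes. The 18 that rose in wild type were all among the 22 that rose in K556R. Without K556R refed 1_b1 and K556R fasted 1_b1 the same 22 rose in K556R, where 18.6% of all genes did, with a median of 0.52. Within batches, the median was 0.82 in batch 1 and 0.80 in batch 2 for K556R, and 0.39 in batch 1 and 0.58 in batch 2 for wild type. Batch 2 held 3 K556R refed libraries and 1 of each other group, so its wild-type median sets 1 library against 1. The batch 1 value for K556R includes both K556R refed 1_b1 and K556R fasted 1_b1. As these are whole livers, more cells of an expressing type and more RNA per cell cannot be told apart. The labels do not say whether each library is a separate mouse, so p-values measure the spread between these libraries, which may be technical. Without wild type refed 1_b2 the wild-type median was 0.27.

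Reads of some of these genes are uncertain. Whether counting used the strand is not given in the sources used here, and 11 of the 36 overlap an annotated gene on the opposite strand, namely Irf1, Irf7, Dhx58, Oasl1, Oas2, Usp18, Ifi35, Ifi47, Tgtp2, Gbp2 and Cxcl10. On the same strand 6 overlap another gene, namely Irf9, Ifi47, Irgm2, Igtp, Gbp6 and Gbp9. The Gbp, Oas1 and Irg families also share sequence between copies. Some marker sums did not overlap between feeding states, and how many of all genes separated in this way was not counted. In wild type the T cell sum was higher in refed livers, by a narrow gap, and the monocyte sum was lower. In K556R the hepatocyte sum was lower in refed livers. The monocyte sum (4 markers) was 1500 to 1660 CPM in wild type refed against 1730 to 2010 CPM in wild type fasted livers. In K556R it was 1210 to 1840 CPM refed against 1480 to 1950 CPM fasted, with 0 of 3 tested markers passing in each genotype. The sum of 6 T cell markers was 1.76 to 4.62 CPM in K556R refed against 0.964 to 5.20 CPM in K556R fasted livers, and 2.26 to 3.08 CPM in wild type refed against 1.22 to 2.24 CPM in wild type fasted livers, with 1 of 2 tested markers higher in each genotype. For 6 plasmacytoid dendritic cell markers the sum was 106 to 115 CPM in K556R refed against 85.9 to 113 CPM in K556R fasted livers, and 91.4 to 114 CPM in wild type refed against 82.8 to 91.8 CPM in wild type fasted livers, with 1 of 3 tested markers higher in each genotype. Most of that sum was Bst2, itself an interferon-stimulated gene. Bst2 averaged 98.2 CPM in K556R refed, 86.5 CPM in K556R fasted, 89.1 CPM in wild type refed and 78.1 CPM in wild type fasted livers. The sum therefore does not show the number of these cells. The Kupffer cell sum overlapped between feeding states, at 76.7 to 155 CPM in K556R refed against 79.0 to 102 CPM in K556R fasted livers, and 64.2 to 105 CPM in wild type refed against 42.7 to 239 CPM in wild type fasted livers, with 0 of 7 markers passing. Of the tested markers of other lists, 1 of 2 neutrophil markers was higher in K556R and 0 of 2 passed in wild type, 4 of 7 hepatocyte markers were lower in K556R, and 3 of 7 were lower and 1 higher in wild type. The neutrophil sum was 0.878 to 3.79 CPM in K556R refed against 0.835 to 1.96 CPM in K556R fasted livers, and 0.895 to 1.69 CPM in wild type refed against 0.556 to 2.45 CPM in wild type fasted livers. The hepatocyte sum was 98500 to 114000 CPM in K556R refed against 126000 to 134000 CPM in K556R fasted livers, and 103000 to 110000 CPM in wild type refed against 101000 to 143000 CPM in wild type fasted livers. Of 6 sinusoidal endothelial markers 2 were lower in each genotype, with a sum of 82.2 to 103 CPM in K556R refed against 103 to 116 CPM in K556R fasted livers, and 82.8 to 99.0 CPM in wild type refed against 71.4 to 123 CPM in wild type fasted livers. Of 7 stellate cell markers 2 were lower in K556R and 0 passed in wild type. Of 7 proliferation markers 1 was higher and 1 lower in K556R, and 0 passed in wild type. In K556R 19.6% of all genes rose and 20.3% fell, and in wild type 20.9% rose and 24.2% fell. These marker lists are too short to be set apart from those shares. The part of the cells these markers stand for in the refeeding changes was not tested.

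**Figure D2:**
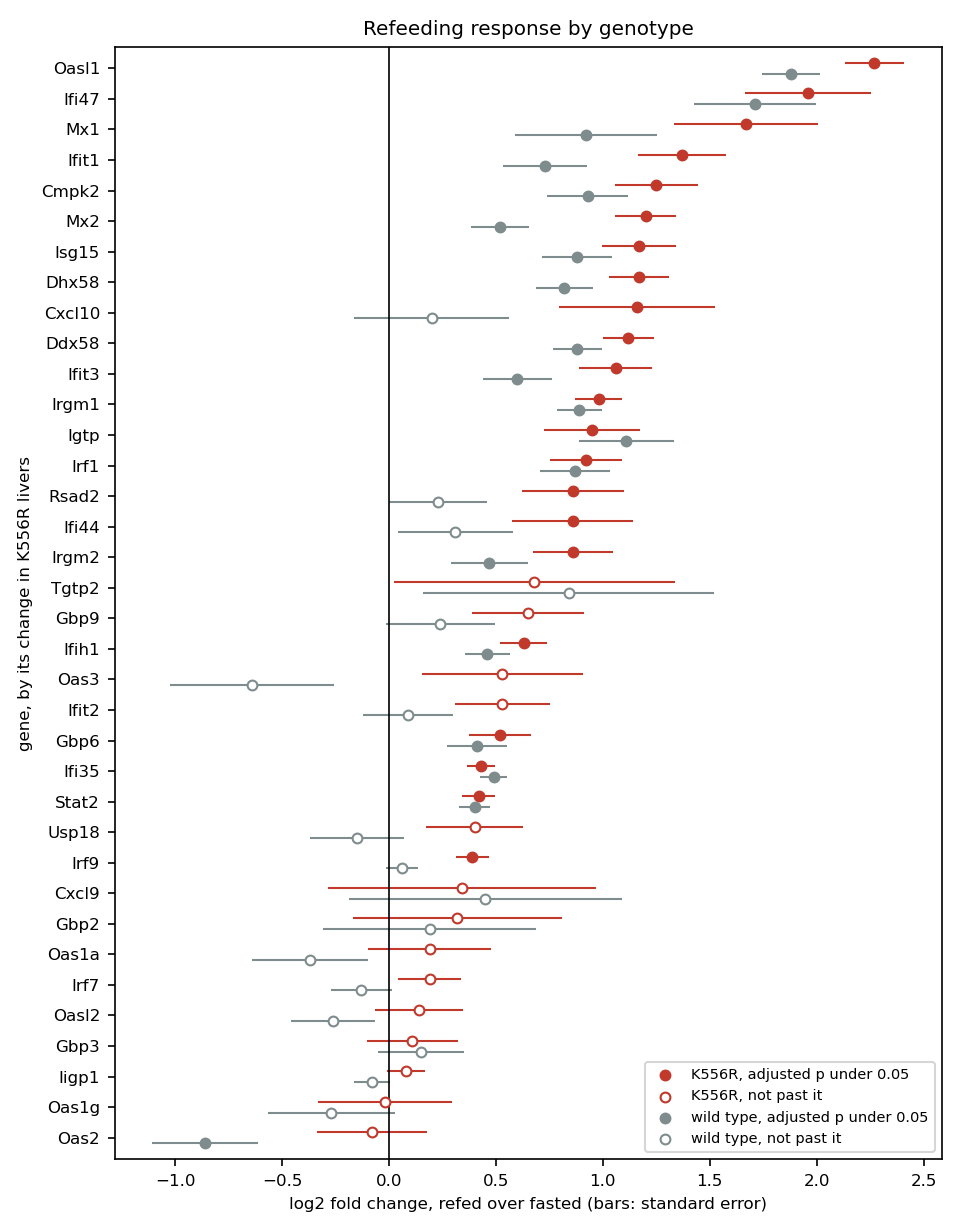
Log2 fold change of each gene on refeeding in K556R (red) and wild-type (grey) livers, with standard errors as bars and filled points where the adjusted p is under 0.05. Oasl1 and Ifi47 lead in both genotypes, and Oas2 is the only filled point left of 0.

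Among the transcription factors, Stat2, Irf1 and Irf9 rose in K556R livers and Stat2 and Irf1 rose in wild type. Stat2, an interferon-activated subunit of the complex that binds the ISRE, had a log2 fold change of 0.42 (standard error 0.0773, adjusted p = 0.000238) in K556R and 0.40 (standard error 0.0743, adjusted p = 0.000208) in wild type. Irf1, an activator induced chiefly by interferon gamma, averaged 33.3 ± 5.47 CPM in K556R refed against 17.2 ± 3.07 CPM in K556R fasted livers (SD, n = 5 each), and 29.8 ± 3.11 CPM in wild type refed against 16.3 ± 4.43 CPM in wild type fasted livers. On refeeding Irf1 had a log2 fold change of 0.92 (standard error 0.168, adjusted p = 0.000242) in K556R and 0.87 (standard error 0.164, adjusted p = 0.000239) in wild type.

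Irf9 is the DNA-binding subunit of the complex with Stat2. Irf9 had 36.8, 34.1, 37.2, 31.6 and 38.9 CPM in K556R refed livers, against 25.1, 28.5, 26.4, 27.5 and 27.9 CPM in K556R fasted livers. In wild type, Irf9 had 29.6, 28.6, 30.8, 35.0 and 33.4 CPM in refed livers, against 26.2, 30.8, 32.0, 33.3 and 28.9 CPM in fasted livers. Refed and fasted values did not overlap in K556R and overlapped in wild type. Its log2 fold change was 0.39 (standard error 0.0783, adjusted p = 5e-04) in K556R and 0.06 (standard error 0.0745, adjusted p = 0.564) in wild type. Irf7, the factor that amplifies type I interferon synthesis, did not pass the test. Irf7 had 27.7, 30.3, 36.4, 25.5 and 43.2 CPM in K556R refed livers, against 20, 30.8, 26.8, 26.4 and 30.0 CPM in K556R fasted livers. In wild type, Irf7 had 22.4, 29.2, 18.6, 24.4 and 29.8 CPM in refed livers, against 23, 31.8, 29.3, 24.2 and 27.5 CPM in fasted livers. The refed and fasted values overlapped in both genotypes, and the log2 fold change was 0.19 (adjusted p = 0.323) in K556R and -0.13 (adjusted p = 0.483) in wild type.

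All 3 RNA sensors rose on refeeding in both genotypes. Ddx58, also called RIG-I, detects RNA with 5' triphosphates. Ddx58 had 35.4, 26.0, 32.2, 26.0 and 30.0 CPM in K556R refed livers, against 14.2, 13.7, 14.5, 10.8 and 13.3 CPM in K556R fasted livers. In wild type, Ddx58 had 27.7, 27.8, 24.8, 32.7 and 30.7 CPM in refed livers, against 15.1, 16.7, 13.2, 13.2 and 20 CPM in fasted livers. All 10 refed libraries lay above all 10 fasted libraries. On refeeding Ddx58 had a log2 fold change of 1.12 (standard error 0.12, adjusted p = 5.99e-07) in K556R and 0.88 (standard error 0.115, adjusted p = 3.78e-06) in wild type. Ifih1, also called MDA5, detects long double-stranded RNA. Ifih1 had 35.0, 23.7, 33.9, 31.0 and 33.4 CPM in K556R refed livers, against 19.5, 18.6, 20.9, 16.0 and 19.0 CPM in K556R fasted livers. In wild type, Ifih1 had 26.8, 28.9, 30.7, 31.0 and 36.3 CPM in refed livers, against 18.8, 22.2, 19.2, 21.1 and 30.6 CPM in fasted livers. Refed and fasted livers did not overlap in K556R, while in wild type the library fasted 1_b2 reached into the refed range. On refeeding Ifih1 had a log2 fold change of 0.63 (standard error 0.109, adjusted p = 0.000117) in K556R and 0.46 (standard error 0.104, adjusted p = 0.00104) in wild type. Dhx58, or LGP2, a regulator of the other sensors, read 7.94 to 11.2 CPM in K556R refed against 2.77 to 4.80 CPM in K556R fasted livers, and 7.67 to 9.59 CPM in wild type refed against 3.71 to 5.66 CPM in wild type fasted livers, with a log2 fold change of 1.17 in K556R and 0.82 in wild type.

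The OAS family split. Oas enzymes make 2'-5'-linked oligoadenylates that activate an RNA-cutting enzyme, and Oasl1, which in mouse represses translation of Irf7, lacks that activity. Oasl1 had the largest rise of the 36 genes in both genotypes. Oasl1 had 19.0, 21.4, 24.9, 19.5 and 25.5 CPM in K556R refed livers, against 3.71, 4.02, 4.28, 3.94 and 5.15 CPM in K556R fasted livers. In wild type, Oasl1 had 14.5, 18.2, 13.8, 24.3 and 20.1 CPM in refed livers, against 4.33, 5.19, 5.04, 3.92 and 6.41 CPM in fasted livers. Every refed library lay above every fasted one. On refeeding Oasl1 had a log2 fold change of 2.27 (standard error 0.14, adjusted p = 2.27e-09) in K556R and 1.88 (standard error 0.134, adjusted p = 3.84e-09) in wild type, or 4.83-fold in K556R and 3.67-fold in wild type. None of the other 5 OAS genes rose in either genotype. Oas2 fell in wild type. Oas2 had 3.92, 2.94, 2.40, 2.75 and 3.08 CPM in K556R refed livers, against 3.34, 4.55, 3.22, 2.67 and 2.74 CPM in K556R fasted livers. In wild type, Oas2 had 2.01, 2.19, 2.10, 2.52 and 3.13 CPM in refed livers, against 3.02, 8.13, 4.26, 2.64 and 3.81 CPM in fasted livers. The highest wild type fasted value came from replicate 2_b1, and the wild type groups overlapped. Its log2 fold change was -0.08 (standard error 0.256, adjusted p = 0.834) in K556R and -0.86 (standard error 0.247, adjusted p = 0.00776) in wild type. Over the fits that each leave out 1 library, the wild-type change ranged from -1.04 to -0.52 and the highest adjusted p was 0.0346. Oas1a, Oas1g, Oasl2 and Oas3 had log2 fold changes of -0.02 to 0.53 in K556R (adjusted p of 0.288 or more) and -0.64 to -0.26 in wild type (adjusted p of 0.19 or more).

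The Oasl1 window, shown because this gene rose most and because it holds neither an ISRE nor a GAS core in the searched spelling, is given whole in lower case, from 250 bases before to 50 bases after the start (Oasl1 chr5:114922990-114923289 on the plus strand). Oas1a and Oas1g, whose ISRE stretches are printed above, had adjusted p of 0.64 and 0.972 on refeeding in K556R. Of the 14 genes with a window that rose in both genotypes, 9 held an ISRE core (64.3%), and of the 10 that rose in neither, 6 did (60%).
Oasl1: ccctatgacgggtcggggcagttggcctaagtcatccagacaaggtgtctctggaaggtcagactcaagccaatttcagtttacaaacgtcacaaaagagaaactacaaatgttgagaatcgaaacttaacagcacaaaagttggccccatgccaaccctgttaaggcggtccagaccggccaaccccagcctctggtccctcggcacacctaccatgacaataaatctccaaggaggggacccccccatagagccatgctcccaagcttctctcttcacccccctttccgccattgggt

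**Figure D3:**
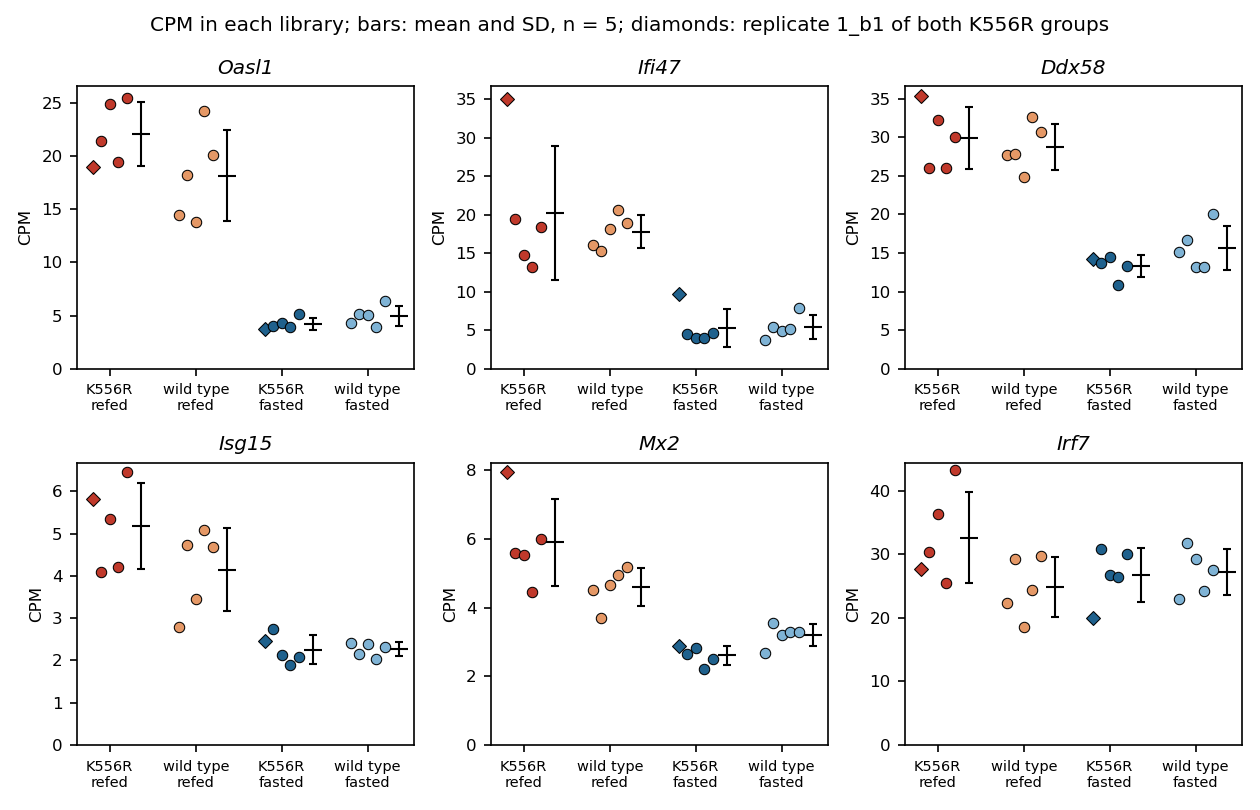
CPM of 6 genes in each library, by group, with the mean and SD beside the points. Refed libraries of both genotypes lie above the fasted ones for Oasl1, Ifi47, Ddx58, Isg15 and Mx2, while the groups overlap for Irf7 (18.6 to 43.2 CPM over all 20 libraries).

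Ifit proteins bind viral RNA ends and block their translation. Of the 3 tested, Ifit1 and Ifit3 rose in both genotypes and Ifit2 in neither. Ifit1 had 12.5, 6.70, 9.23, 8.54 and 10 CPM in K556R refed livers, against 3.86, 3.89, 3.66, 3.10 and 3.14 CPM in K556R fasted livers. In wild type, Ifit1 had 5.76, 4.78, 4.33, 8.74 and 7.03 CPM in refed livers, against 3.31, 2.91, 4.29, 3.00 and 5.04 CPM in fasted livers. The K556R groups did not overlap, and the wild type groups overlapped. On refeeding Ifit1 had a log2 fold change of 1.37 (standard error 0.204, adjusted p = 2.66e-05) in K556R and 0.73 (standard error 0.196, adjusted p = 0.00477) in wild type. For Ifit3 the log2 fold change was 1.06 in K556R and 0.60 in wild type, and for Ifit2 it was 0.53 (adjusted p = 0.0635) in K556R and 0.09 (adjusted p = 0.758) in wild type.

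Of 8 other antiviral effectors, 7 rose in K556R and 5 in wild type, and Usp18 rose in neither. Isg15 encodes a ubiquitin-like protein that is attached to other proteins. Isg15 had 5.81, 4.08, 5.34, 4.20 and 6.45 CPM in K556R refed livers, against 2.47, 2.74, 2.12, 1.89 and 2.07 CPM in K556R fasted livers. In wild type, Isg15 had 2.80, 4.73, 3.45, 5.09 and 4.68 CPM in refed livers, against 2.41, 2.15, 2.40, 2.03 and 2.32 CPM in fasted livers. Refed and fasted livers did not overlap in either genotype. On refeeding Isg15 had a log2 fold change of 1.17 (standard error 0.173, adjusted p = 2.17e-05) in K556R and 0.88 (standard error 0.165, adjusted p = 0.000216) in wild type. Mx2, a dynamin-like GTPase with antiviral activity, also separated the feeding states. Mx2 had 7.94, 5.60, 5.53, 4.47 and 6.01 CPM in K556R refed livers, against 2.87, 2.65, 2.84, 2.20 and 2.51 CPM in K556R fasted livers. In wild type, Mx2 had 4.53, 3.71, 4.65, 4.95 and 5.18 CPM in refed livers, against 2.69, 3.55, 3.21, 3.28 and 3.29 CPM in fasted livers. On refeeding Mx2 had a log2 fold change of 1.20 (standard error 0.141, adjusted p = 1.63e-06) in K556R and 0.52 (standard error 0.135, adjusted p = 0.0034) in wild type. Ifi35, which binds a leucine zipper factor, changed by less and with little spread. Ifi35 had 20.4, 23.8, 24.4, 21 and 25.9 CPM in K556R refed livers, against 16.1, 16.2, 17.0, 17.1 and 17.9 CPM in K556R fasted livers. In wild type, Ifi35 had 25.4, 23.1, 24.7, 23.4 and 23.9 CPM in refed livers, against 16.5, 17.5, 16.5, 18.1 and 17.4 CPM in fasted livers. Refed and fasted livers did not overlap in either genotype. On refeeding Ifi35 had a log2 fold change of 0.43 (standard error 0.0656, adjusted p = 3.21e-05) in K556R and 0.49 (standard error 0.0624, adjusted p = 2.81e-06) in wild type.

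Cmpk2, a mitochondrial nucleotide kinase, and Rsad2, or viperin, an enzyme that makes a chain-terminating nucleotide, are neighbours on chromosome 12. Cmpk2 rose in both genotypes and Rsad2 passed the test in K556R. Cmpk2 had 7.50, 5.47, 5.65, 5.10 and 6.49 CPM in K556R refed livers, against 3.42, 3.27, 2.12, 2.36 and 2.16 CPM in K556R fasted livers. In wild type, Cmpk2 had 3.47, 3.54, 3.55, 7.10 and 4.10 CPM in refed livers, against 2.47, 2.38, 2.31, 2.03 and 2.24 CPM in fasted livers. Refed and fasted livers did not overlap in either genotype. On refeeding Cmpk2 had a log2 fold change of 1.25 (standard error 0.195, adjusted p = 3.86e-05) in K556R and 0.93 (standard error 0.189, adjusted p = 0.000451) in wild type. Rsad2 had 14.3, 8.78, 9, 8.98 and 11.2 CPM in K556R refed livers, against 7.85, 6.66, 6.17, 4.51 and 4.38 CPM in K556R fasted livers. In wild type, Rsad2 had 4.73, 4.51, 5.11, 10.8 and 7.18 CPM in refed livers, against 4.77, 5.34, 6.33, 4.75 and 6.50 CPM in fasted livers. The K556R groups did not overlap, and the wild type groups did. On refeeding Rsad2 had a log2 fold change of 0.86 (standard error 0.238, adjusted p = 0.00725) in K556R and 0.23 (standard error 0.229, adjusted p = 0.455) in wild type. Without K556R refed 1_b1 alone, the adjusted p of Rsad2 in K556R was 0.0523. Mx1 had a log2 fold change of 1.67 in K556R and 0.92 in wild type, and its wild-type call was lost in 4 of the 20 fits that leave out 1 library (without wild type fasted 1_b1, fasted 2_b1, refed 4_b1 or refed 1_b2, adjusted p up to 0.11). Ifi44 rose in K556R (0.86, adjusted p = 0.0198), a call lost without K556R refed 1_b1 or K556R fasted 1_b2 (adjusted p up to 0.199). Usp18, which strips Isg15 from proteins and dampens the type I receptor, had 0.40 (adjusted p = 0.18) in K556R and -0.15 (adjusted p = 0.625) in wild type.

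Immunity-related GTPases, which break the vacuoles of intracellular pathogens, rose for 4 of the 6 tested in both genotypes. Irgm1, a regulator of the family, separated refed from fasted livers. Irgm1 had 82.8, 58.2, 72.1, 60 and 68.4 CPM in K556R refed livers, against 39.7, 35.9, 31.1, 26.1 and 36.1 CPM in K556R fasted livers. In wild type, Irgm1 had 57.8, 62.6, 56.7, 64.6 and 66.8 CPM in refed livers, against 31.4, 33.0, 33.2, 30.8 and 38.7 CPM in fasted livers. On refeeding Irgm1 had a log2 fold change of 0.98 (standard error 0.109, adjusted p = 8.66e-07) in K556R and 0.89 (standard error 0.104, adjusted p = 1.13e-06) in wild type. Ifi47, chosen after its values were seen, had 35.1, 19.5, 14.8, 13.2 and 18.4 CPM in K556R refed livers, against 9.73, 4.45, 3.97, 3.99 and 4.57 CPM in K556R fasted livers. In wild type, Ifi47 had 16.1, 15.3, 18.2, 20.6 and 18.9 CPM in refed livers, against 3.69, 5.39, 4.83, 5.14 and 7.90 CPM in fasted livers. Refed and fasted livers did not overlap, and 1_b1 was the highest library in each K556R group. On refeeding Ifi47 had a log2 fold change of 1.96 (standard error 0.293, adjusted p = 4.2e-05) in K556R and 1.71 (standard error 0.286, adjusted p = 9.63e-05) in wild type. Igtp, which rose by 0.95 on the log2 scale in K556R and 1.11 in wild type, and Irgm2, which rose by 0.86 and 0.47, overlap on 1 strand in the annotation, so reads between them are uncertain. The wild-type call of Irgm2 was lost in 8 of the 20 fits without 1 library, namely those without any 1 of 8 wild-type libraries, all but fasted 1_b2 and refed 3_b1 (adjusted p up to 0.14).

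Iigp1 was the most abundant of the 36 genes per length of exon sequence, at 32.1, 30.7, 28.5 and 32.3 CPM per kb in K556R refed, wild type refed, K556R fasted and wild type fasted livers. Oas3 was the least abundant, at 0.0642, 0.0330, 0.0456 and 0.0526 CPM per kb. Iigp1 had 197, 145, 202, 180 and 211 CPM in K556R refed livers, against 180, 184, 150, 147 and 171 CPM in K556R fasted livers. In wild type, Iigp1 had 180, 163, 160, 181 and 208 CPM in refed livers, against 183, 184, 181, 176 and 219 CPM in fasted livers. These ranges overlapped, and the log2 fold change was 0.08 (adjusted p = 0.497) in K556R and -0.08 (adjusted p = 0.492) in wild type. Among the 4 guanylate binding proteins, GTPases that coat pathogen membranes, Gbp6 rose in K556R (0.52, adjusted p = 0.00788) and in wild type (0.41, adjusted p = 0.0209), and Gbp2, Gbp3 and Gbp9 did not pass, with log2 fold changes of 0.11 to 0.65 in K556R and 0.15 to 0.24 in wild type. The Gbp6 call was lost without K556R refed 1_b1 in K556R (adjusted p = 0.0762), and in wild type without fasted 3_b1, fasted 4_b1 or refed 1_b2 (adjusted p up to 0.0663).

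Cxcl9 and Cxcl10 encode chemokines that attract T cells and natural killer cells through Cxcr3. Cxcl10 had 5.44, 2.02, 1.85, 1.85 and 2.45 CPM in K556R refed livers, against 2.38, 1.71, 0.8, 0.668 and 0.859 CPM in K556R fasted livers. In wild type, Cxcl10 had 1.06, 1.24, 1.17, 2.01 and 2.05 CPM in refed livers, against 0.949, 1.33, 1.23, 1.39 and 1.70 CPM in fasted livers. K556R refed 1_b1 was the highest of all 20 libraries, and refed and fasted ranges overlapped in both genotypes. On refeeding Cxcl10 had a log2 fold change of 1.16 (standard error 0.366, adjusted p = 0.016) in K556R and 0.20 (standard error 0.363, adjusted p = 0.696) in wild type. Without K556R refed 1_b1 alone the K556R value was 0.60 (adjusted p = 0.184), without K556R fasted 1_b2 alone 1.02 (adjusted p = 0.0593), and without both 1_b1 libraries 0.92 (adjusted p = 0.0153). Cxcl9 had 0.34 (adjusted p = 0.703) in K556R and 0.45 (adjusted p = 0.604) in wild type.

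The question of genotype was whether K556R and wild-type livers differed in these genes in the same feeding state. By edgeR 0 of the 36 passed in refed livers, in fasted livers, in the mean of both states and in the interaction, where 0%, 0%, 0.0288% and 0% of all genes passed. DESeq2 also called 0 of the 36 in each (0.0432%, 0.489%, 0.295% and 0.0072% of all genes), as did limma with sample quality weights (0%, 0.0144%, 0.0432% and 0%).

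In refed livers 33 of the 36 genes had a positive log2 fold change of K556R over wild type, with a median of 0.28 beside 0.02 over all genes. At an unadjusted p under 0.05, 9 were higher in K556R and 0 lower (Irf9, Oas3, Ifit1, Usp18, Rsad2, Cmpk2, Mx1, Mx2 and Cxcl10), where 2.9% of all genes were higher and 2.09% lower. The lowest adjusted p among them was 0.935. Rsad2, with the values above, averaged 10.4 ± 2.35 CPM in K556R refed and 6.47 ± 2.65 CPM in wild type refed livers (SD, n = 5 each), a log2 fold change of 0.72 (standard error 0.233, adjusted p = 0.935). For Ifit1 the means were 9.40 ± 2.14 and 6.13 ± 1.79 CPM, for Cmpk2 6.04 ± 0.961 and 4.35 ± 1.56 CPM, and for Mx2 5.91 ± 1.27 and 4.60 ± 0.561 CPM in K556R refed and wild type refed livers. Their log2 fold changes were 0.57, 0.54 and 0.38, each with an adjusted p of 0.965, and both groups overlapped for all 4 genes. Isg15 had 0.29 (adjusted p = 0.965), Irf7 0.30 (adjusted p = 0.965) and Cxcl10 0.89 (adjusted p = 0.965).

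The positive median went with 1 library. K556R refed 1_b1 was the highest of the 10 refed libraries for 22 of the 36 genes and for 23.3% of all genes tested, and K556R refed 3_b2 was the highest for 12 of the 36 and for 6.79% of all genes. Without K556R refed 1_b1 and K556R fasted 1_b1 the median of the 36 was -0.03, with 17 positive. In that fit K556R refed held 2_b1 alone in batch 1, and wild type refed held 1_b2 alone in batch 2. At an unadjusted p under 0.05, 3 of the 36 passed (5.91% of all genes), Irf7 at 0.35, Ifih1 at -0.22 and Cxcl9 at -0.76. Within batch 1 the median was 0.37 (2 K556R against 4 wild-type libraries) and within batch 2 it was -0.06 (3 against 1). The lowest and highest medians over the fits without 1 library were -0.01, without K556R refed 1_b1, and 0.35, without wild type refed 1_b2.

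**Figure D4:**
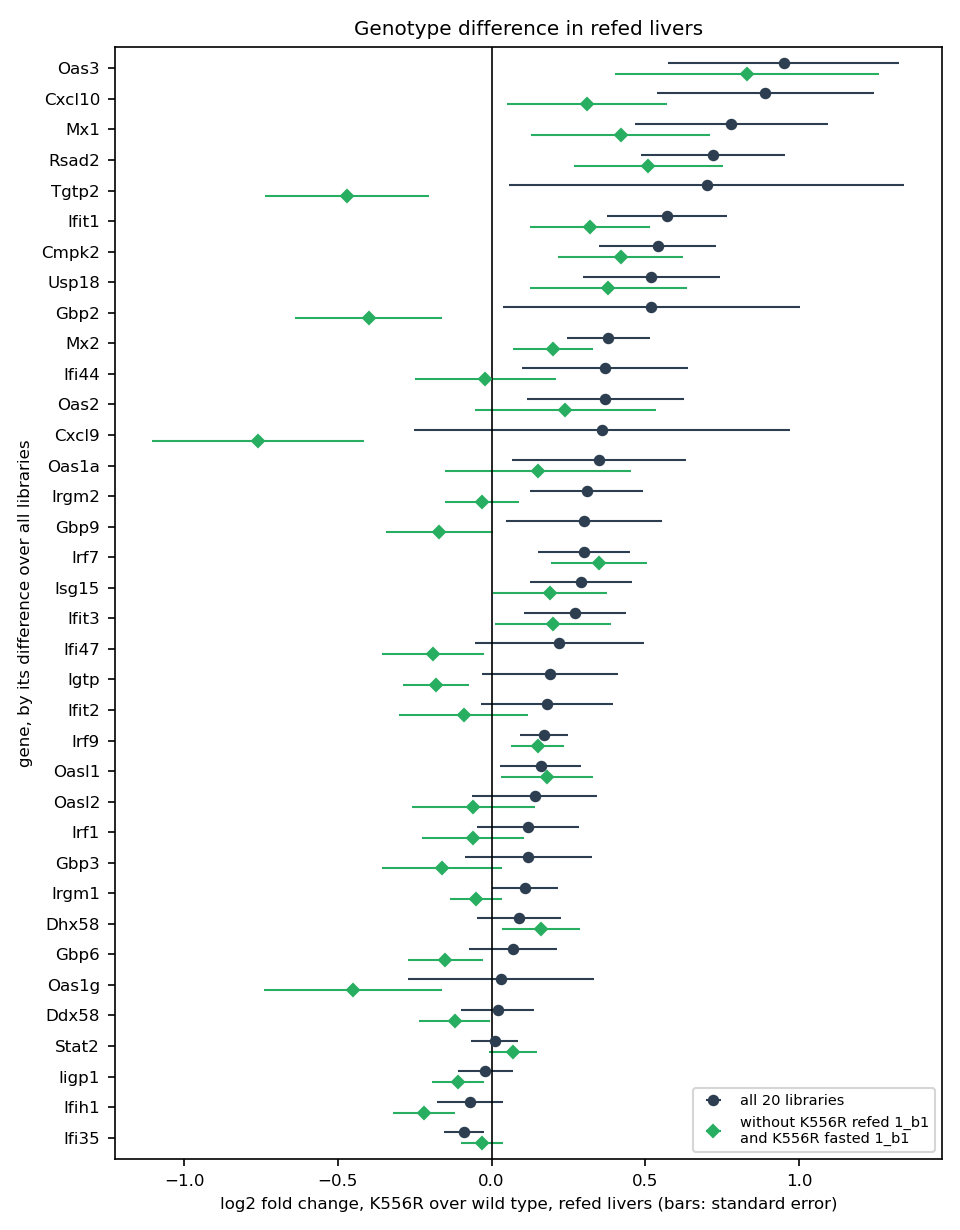
Log2 fold change of K556R over wild type in refed livers for each gene, with all 20 libraries (dark circles) and without K556R refed 1_b1 and K556R fasted 1_b1 (green diamonds), with standard errors as bars. Most circles lie right of 0, with a median of 0.28, and the diamonds spread about 0, with a median of -0.03 and Tgtp2, Gbp2 and Cxcl9 far to the left of their circles.

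In fasted livers the median of the 36 was -0.07, beside -0.01 over all genes, and 10 of 36 were positive. At an unadjusted p under 0.05, 4 were lower in K556R and 0 higher (Irf9, Ifih1, Mx2 and Iigp1), where 4.99% of all genes were lower and 3.19% higher. From the values above, Ifih1 averaged 18.8 ± 1.78 CPM in K556R fasted and 22.4 ± 4.80 CPM in wild type fasted livers (SD, n = 5 each), Irf9 27.1 ± 1.36 and 30.2 ± 2.78 CPM, Mx2 2.61 ± 0.275 and 3.21 ± 0.315 CPM, and Iigp1 166 ± 17.3 and 188 ± 17.4 CPM. The K556R and wild type ranges overlapped for all 4. Their log2 fold changes were -0.24, -0.16, -0.30 and -0.18, with adjusted p of 0.551, 0.588, 0.593 and 0.604. Isg15, Irf7, Ifit1 and Cxcl10 had -0.01, -0.02, -0.07 and -0.07, with adjusted p of 0.969 or more. Without the 1_b1 libraries of both K556R groups the median was -0.21, 0 of the 36 passed the adjusted test, and 4 were lower at an unadjusted p under 0.05 (Ddx58, Ifih1, Mx2 and Iigp1), where 4.76% of all genes were.

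Averaged over both feeding states, the median was 0.09, beside 0.00 over all genes, and 2 genes were higher in K556R at an unadjusted p under 0.05, where 4.22% of all genes were. These were Rsad2 (0.40, adjusted p = 0.448) and Cmpk2 (0.37, adjusted p = 0.391). Ifih1 had -0.15, Ifit1 0.25, Isg15 0.14, Irf7 0.14 and Cxcl10 0.41 on the log2 scale, with adjusted p of 0.542 to 0.769. Without K556R refed 1_b1 and K556R fasted 1_b1 the median was -0.05, and 0 of the 36 passed the adjusted test. At an unadjusted p under 0.05, 0 were then higher and 5 lower in K556R (Cxcl9, Ddx58, Ifi47, Ifih1 and Iigp1), where 4.58% of all genes were lower.

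The interaction, the refeeding change in K556R minus that in wild type, had a median of 0.33 over the 36 genes, beside 0.02 over all genes, and 31 were positive. At an unadjusted p under 0.05, 5 were higher (Irf9, Mx2, Ifit1, Oas2 and Oas3), where 2.67% of all genes were, and every adjusted p was 1. Mx2 had 0.68 (standard error 0.194), Irf9 0.33 (standard error 0.108), Ifit1 0.64 (standard error 0.283) and Oas2 0.78 (standard error 0.353) on the log2 scale. Isg15, Irf7 and Cxcl10 had 0.30, 0.33 and 0.96. The 4 genes that passed on refeeding in K556R and not in wild type, Irf9, Rsad2, Ifi44 and Cxcl10, were not shown to differ between genotypes. At the same p, 2 were higher (Irf9 and Mx2) without K556R refed 1_b1 and K556R fasted 1_b1, where 1.97% of all genes were. The median was 0.23 without both, 0.16 without K556R refed 1_b1 alone and 0.55 without wild type refed 1_b2 alone.

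Tgtp2, Gbp2 and Cxcl9, chosen after their values were seen, were the 3 genes of the 36 for which both 1_b1 libraries of the K556R groups lay above all 18 others. How many of all genes did so was not counted. Tgtp2, a GTPase of the Irg family with a near-identical copy, Tgtp1, that was not matched here, had 17.4, 2.53, 2.54, 3.09 and 4.00 CPM in K556R refed livers, against 3.61, 2.30, 1.96, 4.05 and 6.43 CPM in wild type refed livers. In fasted livers it had 13.1, 2.34, 1.65, 1.41 and 1.91 CPM in K556R, against 1.92, 2.61, 1.68, 2.67 and 2.00 CPM in wild type. The first value of each K556R series is 1_b1, and for Tgtp2 the next highest of all libraries was wild type refed 1_b2. Gbp2, a guanylate binding protein, had 12.3, 2.68, 2.11, 2.56 and 3.41 CPM in K556R refed livers, against 2.74, 2.11, 2.64, 3.79 and 5.26 CPM in wild type refed livers. In fasted livers it had 9.78, 2.80, 1.88, 2.91 and 2.70 CPM in K556R, against 2.80, 4.09, 2.61, 3.28 and 2.50 CPM in wild type. Again 1_b1 led each K556R group, with no other K556R library above the highest of wild type. Cxcl9 had 30.7, 4.04, 6.12, 6.02 and 7.78 CPM in K556R refed livers, against 6.46, 5.75, 3.38, 8.14 and 18.5 CPM in wild type refed livers. In fasted livers it had 24.7, 6.13, 3.90, 5.51 and 5.28 CPM in K556R, against 6.65, 6.47, 6.03, 8.56 and 4.91 CPM in wild type. For all 3 genes 1_b1 is the highest of the 5 values of its K556R group.

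The log2 fold change of K556R over wild type in refed livers was 0.70 for Tgtp2, 0.52 for Gbp2 and 0.36 for Cxcl9, and without the 1_b1 libraries it was -0.47, -0.40 and -0.76. None of these passed the adjusted test. Tgtp2 rose on refeeding in wild type when those libraries were left out (0.71, adjusted p = 0.0216), and had 0.84 (adjusted p = 0.347) with them. In K556R refed 1_b1 alone, 21 of the 36 genes lay above all 18 other libraries. The share of all genes that did so was not taken. This library also stood apart over the whole table, as the highest refed library for 23.3% of all genes.

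Some marker lists, of immune cells and of others, read higher in the 1_b1 libraries. The T cell, natural killer cell, B cell and proliferation sums were above the other 18 libraries in both. The neutrophil and cholangiocyte sums were so in K556R refed 1_b1 alone. The cholangiocyte sum (6 markers) was 47.5 and 37.3 CPM, in refed and fasted 1_b1, against 26.9 to 42.9 CPM. Sums of plasmacytoid dendritic cell, endothelial, stellate cell and hepatocyte markers lay within the range of the other 18. The summed level of 6 T cell markers was 4.62 CPM in K556R refed 1_b1 and 5.20 CPM in K556R fasted 1_b1. The other 18 read 0.964 to 3.15 CPM, and 5 of the 6 markers were above all 18 in each 1_b1 library. The share of all genes above all 18 was not taken. K556R refed 1_b1 was the highest refed library for 23.3% of all genes, and K556R fasted 1_b1 the highest fasted library for 13%. For 6 natural killer cell markers the sums were 2.99 and 5.4 CPM, against 0.306 to 1.18 CPM, with 5 of 6 above all 18 in each and Klra8 at 0 in K556R fasted 1_b1. The B cell sum (5 markers) was 4.16 and 2.92 CPM, against 0.334 to 2.33 CPM, and the neutrophil sum (5 markers) was 3.79 and 1.96 CPM, against 0.556 to 2.45 CPM, with Mpo at 0 in K556R fasted 1_b1. The proliferation sum (8 genes) was 46.0 and 27.6 CPM, against 10.6 to 23.4 CPM. The monocyte sum (4 markers) was 1210 CPM in K556R refed 1_b1, below the 1470 to 2010 CPM of the other 18, and 1480 CPM in K556R fasted 1_b1, near their lowest. Yet 2 of the 4 markers were above all 18 in each. The sum did not follow those 2 markers, so it gives no direction for monocytes. The Kupffer cell sum (7 markers) was 155 and 101 CPM, within the 42.7 to 239 CPM of the others, whose highest value was in a wild type fasted library. The part of these cells in the values of the interferon-stimulated genes was not tested.

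**Figure D5:**
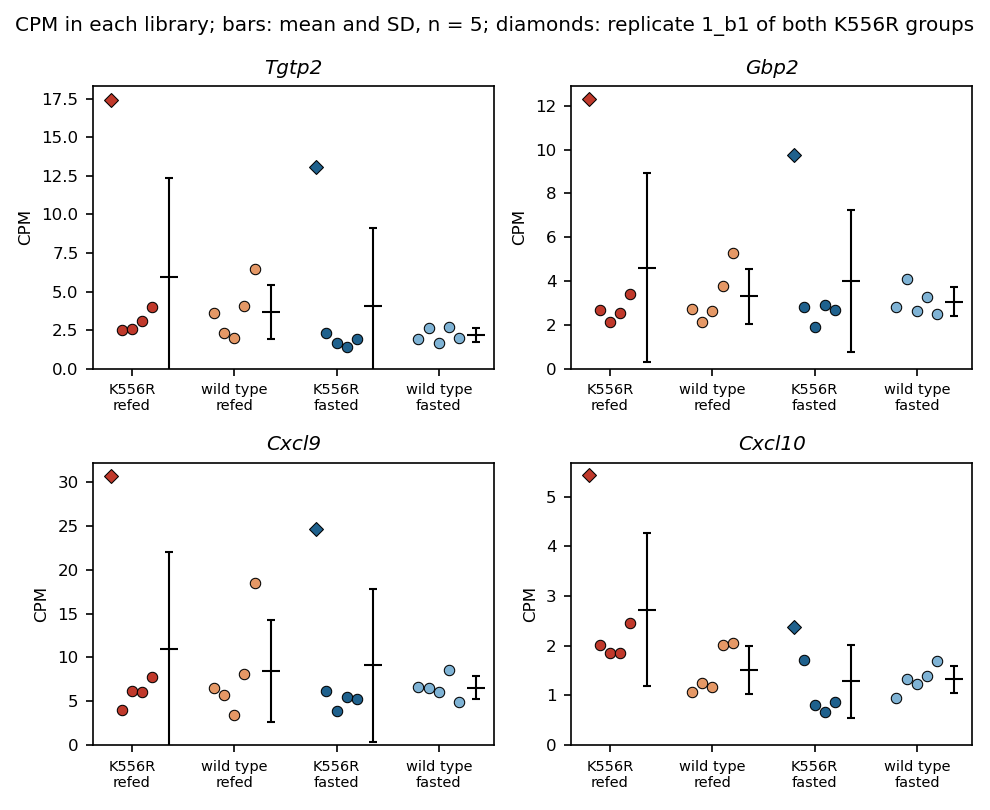
CPM of Tgtp2, Gbp2, Cxcl9 and Cxcl10 in each library, by group, with the mean and SD beside the points (SD bars that pass 0 end at the axis) and diamonds for replicate 1_b1 of both K556R groups. The diamonds of Tgtp2 (17.4 and 13.1 CPM) lie above all other libraries, which reach 6.43 CPM.

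Genes around the interferon response were taken from a separate list. Of 21 interferon ligand genes 17 were in the table and 0 passed the filter on low counts, with at most 5 reads in any library, so ligand changes were not detectable at this depth. On refeeding, 0 of 5 receptor genes passed in K556R, and 2 fell in wild type, Ifnar2 (-0.20, adjusted p = 0.0029) and Ifngr2 (-0.35, adjusted p = 0.0304). As 20.3% of all genes fell in K556R and 24.2% in wild type, 5 genes are too few to be set apart from those shares. Stat3, the main transducer of interleukin 6, had -0.30 in K556R (adjusted p = 0.00167) and -0.35 in wild type (adjusted p = 0.000217). Of 15 sensing and signalling genes, 5 rose and 2 fell in K556R (19.6% of all genes rose and 20.3% fell), and 4 rose and 4 fell in wild type (20.9% of all genes rose and 24.2% fell), the wild-type counts being near the share of all genes. Ikbke, a kinase that activates Irf3 and Irf7, led with 1.89 in K556R (adjusted p = 1.05e-08) and 1.73 in wild type (adjusted p = 8.36e-09). Irf5, which acts downstream of Toll-like receptors, rose by 1.00 in K556R and 0.42 in wild type, and Myd88, their adaptor, had -0.70 in K556R and -0.73 in wild type.

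Of 8 tested negative regulators, 2 rose and 3 fell in each genotype, few genes to set beside the 19.6% and 20.9% of all genes that rose and the 20.3% and 24.2% that fell in K556R and wild type. The lowest p in both was that of Irf2bp2, a corepressor that binds Irf2, with -1.19 in K556R and -1.61 in wild type. Irf2, a repressor of interferon targets, had -0.31 in K556R and -0.29 in wild type, and Ptpn6, a phosphatase that dampens cytokine receptor signalling, had 0.29 in K556R and 0.22 in wild type. Of 43 further interferon-stimulated genes, 21 rose and 0 fell in K556R, where 19.6% of all genes rose, and 14 rose and 1 fell in wild type, where 20.9% did, with a median log2 fold change of 0.44 in K556R and 0.19 in wild type. Parp12 (0.65 in K556R, 0.35 in wild type), Eif2ak2, the RNA-activated kinase PKR (0.71 and 0.44), Samd9l (0.92 and 1.02) and Lgals3bp (0.52 and 0.44), a secreted glycoprotein, were among those that rose in both. Of 14 antigen processing and MHC class I genes, 4 rose and 0 fell in K556R, and 4 rose and 1 fell in wild type, not far from the same 19.6% and 20.9% of all genes. They included the immunoproteasome subunit Psmb9 (0.77 in K556R, 0.59 in wild type) and the peptide transporter Tap1 (0.57 in each). Between genotypes, 0 genes of these lists passed the edgeR test in refed livers, fasted livers or the mean of both. Of all genes, 0%, 0% and 0.0288% passed in these contrasts, so the lists cannot be set apart from the whole table.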

How the data were processed

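The 20 libraries (4 groups of 5) were made from poly-A RNA of mouse liver and sequenced on Illumina instruments, per the labels' protocols. The authors deposited 1 table of raw read counts per gene; the build mm10 and the tools STAR, STAR-Fusion, TopHat, HTSeq, edgeR and DESeq2 come from the submitters' processing notes, without versions. Whether the strand was counted is not given in the sources used here.

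Counts were tested with edgeR 4.0.16 in R 4.3.3 (filterByExpr with a minimum count of 10 and a minimum total of 15, TMM scaling, robust quasi-likelihood fit, 1 model of the 4 groups plus batch over all 20 libraries). Benjamini-Hochberg adjustment ran over all 13894 genes tested, with a threshold of 0.05. The 6 contrasts were K556R against wild type in refed livers, in fasted livers and averaged over feeding, the effect of refeeding in K556R and in wild type, and the interaction. The code was tested on simulated data with 200 changed genes. Totals of 33746054 to 50647297 counts set the precision, and low genes such as Oas3 are the least precise. No 2 libraries of a group agreed within counting noise (lowest chi-square per degree of freedom 11.7 over 40 pairs).

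Alternatives were DESeq2 1.42.0, limma 3.58.1 with sample quality weights, RLE and upper-quartile scaling, no filter, a filter at 1 CPM in 5 libraries, no robust fit, a replicate block, batch 1 and batch 2 each by itself, the model with no batch, the compared groups alone, the fit without K556R refed 1_b1 and K556R fasted 1_b1, and 20 fits without 1 library each.

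The genes, gene lists and markers were chosen with earlier results of these data known. Values in every library are given for the 4 genes of lowest p in each contrast and for Isg15, Irf7, Ifit1 and Cxcl10, and from the pathway list for the 2 of lowest p in each class as fold changes. The kinase and STAT class is not reported here in full. Exon lengths and overlaps came from the GENCODE M21 annotation, and promoters from RefSeq.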

Additional observations from a re-analysis of the deposited data

Results flagged for a closer look

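Over 144 sets of 5 libraries (36 genes in 4 groups), 17 had a highest library whose gap to the next took up more of the group's range than Dixon's 95% limit of 0.71. The nominal rate of that limit is about 1 in 20, for independent, normally spread values and a gap at either end. These sets share the same libraries and are not independent, so 17 cannot be read against that rate. The rate over all genes was not taken. Of these, 7 fell on K556R refed 1_b1 and 4 on K556R fasted 1_b1.

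In K556R refed 1_b1, Cxcl9 read 30.7 CPM (next highest of its group 7.78), Tgtp2 17.4 CPM (next 4.00), Gbp2 12.3 CPM (next 3.41) and Gbp9 6.74 CPM (next 3.50). In the same library Cxcl10 read 5.44 CPM (next 2.45), Ifi47 35.1 CPM (next 19.5) and Igtp 63.5 CPM (next 39.1). In K556R fasted 1_b1, Cxcl9 read 24.7 CPM (next 6.13), Tgtp2 13.1 CPM (next 2.34), Gbp2 9.78 CPM (next 2.91) and Ifi47 9.73 CPM (next 4.57). Sums of T cell, natural killer cell, B cell and proliferation markers were highest in these libraries too. The part of such cells in these values was not tested.

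The library K556R refed 2_b1 had the highest Stat2, at 111 CPM (next 90.2). Wild type refed 1_b2 had the highest Oas1g, at 0.668 CPM (next 0.416), and the highest Gbp9, at 4.38 CPM (next 2.98). Wild type refed 4_b1 had the highest Cmpk2, at 7.10 CPM (next 4.10). Wild type fasted 1_b2 had the highest Ifih1, at 30.6 CPM (next 22.2), and the highest Iigp1, at 219 CPM (next 184).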

How the results depend on the processing

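The count of genes called moved by over 1.5 times in batch 2 alone. There 8 of the 36 passed on refeeding in wild type (8.02% of all genes), against 19 in the full fit (45.1% of all genes). Between genotypes, 1 passed in refed livers (Cxcl9, -1.49, adjusted p = 0.00891), 1 in fasted livers (Ifih1, -0.70, adjusted p = 0.0322) and 2 in the mean of both (Cxcl9, -0.70, and Ifih1, -0.43), all lower in K556R. Of all genes, 0.0841%, 1.54% and 1.09% were called in these genotype contrasts by edgeR. Batch 2 holds 1 library in 3 of the groups, which are assumed to vary like its 3 K556R refed libraries. Fits without 1 library called 18 to 24 genes on refeeding in K556R, 17 to 19 in wild type and 0 between genotypes. The shares of all genes called in those fits are not given here.

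Signs turned for changes that had not passed the test, and the cause was not tested. In batch 2 alone the log2 value was -0.01 for Cxcl10 in the refed contrast (0.89 in the full fit), 0.12 for Irf7 in the fasted contrast, -0.07 for Rsad2 (full fit 0.40), -0.15 for Ifit1 (full fit 0.25) and -0.50 for Cxcl10 (full fit 0.41) in the mean of both, and 0.12 for Irf7 on refeeding in wild type. In batch 1 alone Isg15 had 0.03, Ifit1 0.10 and Cxcl10 0.18 in the fasted contrast. Upper-quartile scaling gave 0.02 for Isg15 and 0 for Irf7 there, and the compared groups alone gave 0 for Isg15. Without K556R refed 1_b1 and K556R fasted 1_b1, Irf7 had 0.06 in the fasted contrast and Cxcl10 -0.05 in the mean of both. Without 1 library each, the fasted contrast ran from -0.09 to 0.05 for Isg15, -0.09 to 0.06 for Irf7, -0.14 to 0.06 for Ifit1 and -0.41 to 0.12 for Cxcl10, and Cxcl10 on refeeding in wild type from -0.05 to 0.41.

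Replicate numbers did not pair the libraries (24 pairs with the same number, median correlation of deviations -0.06, from -0.37 to 0.65, with 4 over 0.1, and 4 of 20 libraries correlating best with their own number). The fit with a replicate block called 20 genes on refeeding in K556R, 19 in wild type and 0 between genotypes. The shares of all genes in that fit are not given here. Cxcl10 on refeeding in K556R then had 1.13 (adjusted p = 0.052), and limma gave 0.85 (adjusted p = 0.0615).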
